A study of Mus musculus with 6 samples.

Results

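Amino acid transporters of 7 solute carrier families were examined in the mouse intestine with and without epithelial Myc. The members are the protein-coding genes whose GENCODE M21 symbol begins with Slc1a, Slc3a, Slc6a, Slc7a, Slc36a, Slc38a or Slc43a followed by a number, a rule that uses names and no measured value. This gave 63 genes of the 47643 in the table. Of these, 36 passed the filter on low counts and were tested among 12720 genes, 15 had reads but stayed below the filter, and 12 had no read in any library.

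Enterocytes take up amino acids across the brush border (the apical membrane) with carriers driven by sodium, protons or exchange, and release them to the blood through basolateral exchangers and uniporters. Several of these carriers are heterodimers, in which a heavy chain of the Slc3 family brings a light chain of the Slc7 family to the membrane. Apical and basolateral carriers work in series, so that cationic amino acids, for example, enter by one heterodimer and leave by another. The families also hold relatives with other substrates, such as creatine (Slc6a8), taurine (Slc6a6) and serotonin (Slc6a4).

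RNA came from C57BL/6 males aged 7 to 8 weeks. All of them were injected with tamoxifen and ate a diet with 60% fat for 2 weeks. The 3 control libraries are labelled Mycfl/fl, with Myc flanked by recombination sites, and the 3 Myc-deleted libraries are labelled MycΔIE, ERT2, for a tamoxifen-inducible loss of Myc in the intestinal epithelium. The labels do not name the promoter that drives the recombinase or say whether the controls carry one, so loss of Myc and recombinase activity cannot be told apart here. They number the libraries within each group without saying that each is a separate animal, so p-values measure the spread between libraries, part of which may be technical.

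Libraries held 9956938 to 11328693 expected counts. The controls, libraries 1 to 3 in order here and below, had 5.86, 6.05 and 6.03 CPM (TMM-normalised counts, scaled to a fixed library total) of Myc, and the Myc-deleted libraries had 3.29, 4.37 and 5.81 CPM. Every Myc-deleted library was below every control, the third by a small margin, and the difference did not pass (log2 fold change -0.41 ± 0.22 SE, edgeR adjusted p = 0.318; two-sided exact permutation p = 0.1, the smallest that 3 against 3 allows). The labels name the intestine but the extraction protocol names liver. The 8 enterocyte markers summed to 20950 to 37200 CPM over the 6 libraries and the 5 hepatocyte markers to 3.34 to 6.03 CPM.

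Of the 36 tested transporters, 1 was higher and 3 were lower in the Myc-deleted mice (edgeR quasi-likelihood test, Benjamini-Hochberg adjusted p below 0.05). Slc7a15 rose 1.77-fold. Slc1a1, the brush-border glutamate carrier, fell by 0.72 on the log2 scale, and the imino acid carrier Slc6a20a and its neighbour Slc6a20b fell by 0.50 and 1.04. Among all tested genes 7.95% were called, 4.22% higher and 3.73% lower, against 11.1% of the transporters. The median log2 fold change was 0.04 over the transporters and -0.0021 over all tested genes. All 3 members that fell belong to the apical group, in which 3 of 11 tested genes were called (1 without control library 3, Slc1a1). Slc6a20a and Slc6a20b are tandem genes whose reads can be exchanged in the counting, so their calls may not be independent. None of the 13 tested basolateral genes was called. Whether the apical and basolateral groups differ was not tested. In RNA pooled from many cells, fewer cells of a type and less message per cell cannot be told apart.

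**Figure D1:**
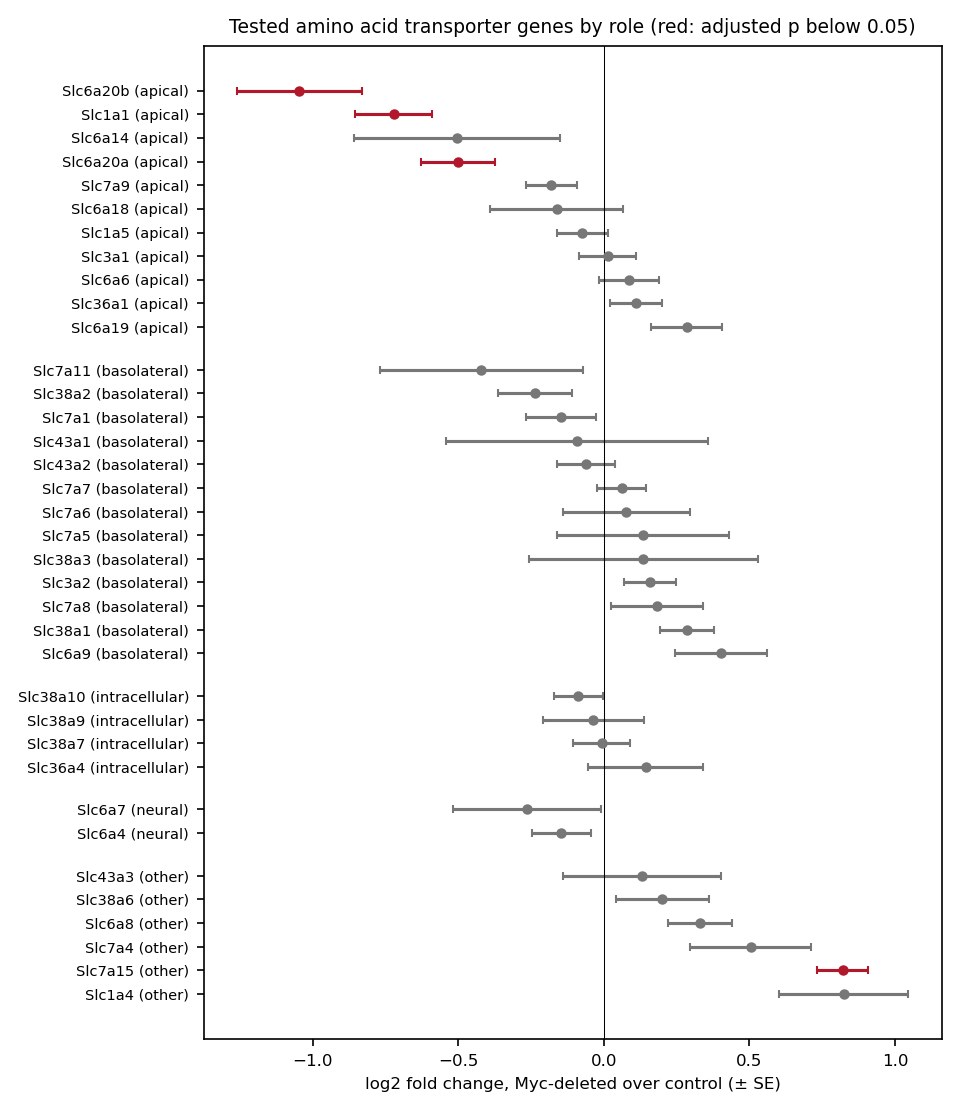
Log2 fold change of Myc-deleted over control libraries (x axis) for the 36 tested transporter genes, ordered by role on the y axis, with the standard error as bars and genes past the adjusted p threshold in red. Slc6a20b, Slc1a1 and Slc6a20a lie below 0 in the apical group, and Slc7a15 lies at 0.82 among the genes of other roles.

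The promoter sequences of the 4 genes that changed are shown because they differ in kind. Each line gives the 120 bases before the outermost annotated start, from RefSeq promoters on GRCm38.p6, in lower case with every CpG dinucleotide in capitals. Slc6a20a lies at chr9:123678886-123679005, Slc6a20b at chr9:123632566-123632685 and Slc7a15 at chr12:8599067-8599186, each on the minus strand, and Slc1a1 at chr19:28834929-28835048 on the plus strand.
Slc6a20a: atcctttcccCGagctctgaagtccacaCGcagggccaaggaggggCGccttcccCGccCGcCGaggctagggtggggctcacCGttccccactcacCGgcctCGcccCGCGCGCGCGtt
Slc6a20b: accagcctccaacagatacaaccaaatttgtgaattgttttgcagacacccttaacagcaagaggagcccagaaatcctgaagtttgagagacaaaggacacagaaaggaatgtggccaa
Slc1a1: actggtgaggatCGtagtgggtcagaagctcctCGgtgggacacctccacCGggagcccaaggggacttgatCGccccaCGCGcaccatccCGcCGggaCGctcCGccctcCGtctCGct
Slc7a15: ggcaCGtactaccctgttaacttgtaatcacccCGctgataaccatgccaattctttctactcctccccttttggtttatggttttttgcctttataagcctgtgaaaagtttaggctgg

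The stretches of Slc6a20a and Slc1a1 hold 14 and 12 CpG dinucleotides, that of Slc7a15 holds 2 and that of Slc6a20b holds 0. Over the whole promoter window of 300 bases (250 before and 50 after the RefSeq start), GC content was 62.3% for Slc6a20a, 70.3% for Slc1a1, 50.7% for Slc7a15 and 44% for Slc6a20b, where the median of all 32851 RefSeq promoters was 52.7%. The tandem genes Slc6a20a and Slc6a20b, which fell together, thus have promoters of unlike base composition. Myc with its partner Max binds the E-box CACGTG. Of the 36 tested members, 26 had a RefSeq promoter, all 4 called genes among them. The E-box letters, which read the same on both strands, were in 3 of these 26 genes (Slc36a1, Slc38a7 and Slc43a1) and in none of the 4 called genes. Over all members with a promoter, tested or not, 13.6% of 66 windows held them, against 7.15% of all promoters. Of the 9 member genes behind that share, only 3 were tested, and the others were at 0 or below the filter.

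The letters TTGCATCA, one form of the composite element bound by Atf4 in the amino acid response, were searched on both strands and do not overlap the E-box letters. They were in the windows of 3 tested members, Slc1a4, Slc7a11 and Slc7a7, and in 0.895% of all promoters. These stretches are shown with 44 bases before the match, and capitals mark each match on either strand. All lie on the minus strand of GRCm38.p6, Slc1a4 at chr11:20332710-20332761, Slc7a11 at chr3:50443653-50443704 and Slc7a7 at chr14:54417938-54417989.
Slc1a4: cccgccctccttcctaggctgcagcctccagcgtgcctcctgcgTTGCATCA
Slc7a11: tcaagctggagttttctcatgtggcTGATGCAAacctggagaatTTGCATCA
Slc7a7: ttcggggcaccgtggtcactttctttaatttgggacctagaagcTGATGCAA

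Slc7a11 holds the element in both directions. None of these 3 genes passed the test, and their log2 fold changes were 0.82 for Slc1a4, -0.42 for Slc7a11 and 0.06 for Slc7a7. A match of letters describes the sequence only.

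Levels of different genes can be compared only per length, as FPKM (CPM per kilobase of annotated exon). On this scale Slc6a19, which encodes the main sodium-coupled carrier of neutral amino acids, led the controls at 263 ± 19.1 FPKM (SD, n = 3). Slc3a1, the heavy chain of the cystine and cationic amino acid carrier, followed at 261 ± 28.5 FPKM, and the control ranges of these first genes overlapped. The creatine carrier Slc6a8 stood at 194 ± 24.8 FPKM, and its range overlapped that of Slc7a9, the light chain partner of Slc3a1, at 169 ± 15 FPKM. Slc7a7, the basolateral exporter of cationic amino acids, came next at 110 ± 10.3 FPKM and overlapped neither neighbour. Slc3a2, the basolateral heavy chain, at 71.4 ± 7.67, Slc43a2, a basolateral uniporter, at 69.1 ± 6.53 and Slc6a20a at 61.8 ± 3.01 FPKM overlapped each with the next. In all, 5 of the 63 genes reached 100 FPKM, 15 reached 10 FPKM and 25 reached 1 FPKM in the control mean. The rank of Slc1a1, the apical glutamate carrier at 27.4 ± 4.41 FPKM, depends on the length used, since its longest transcript gives 59.4 FPKM.

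**Figure D2:**
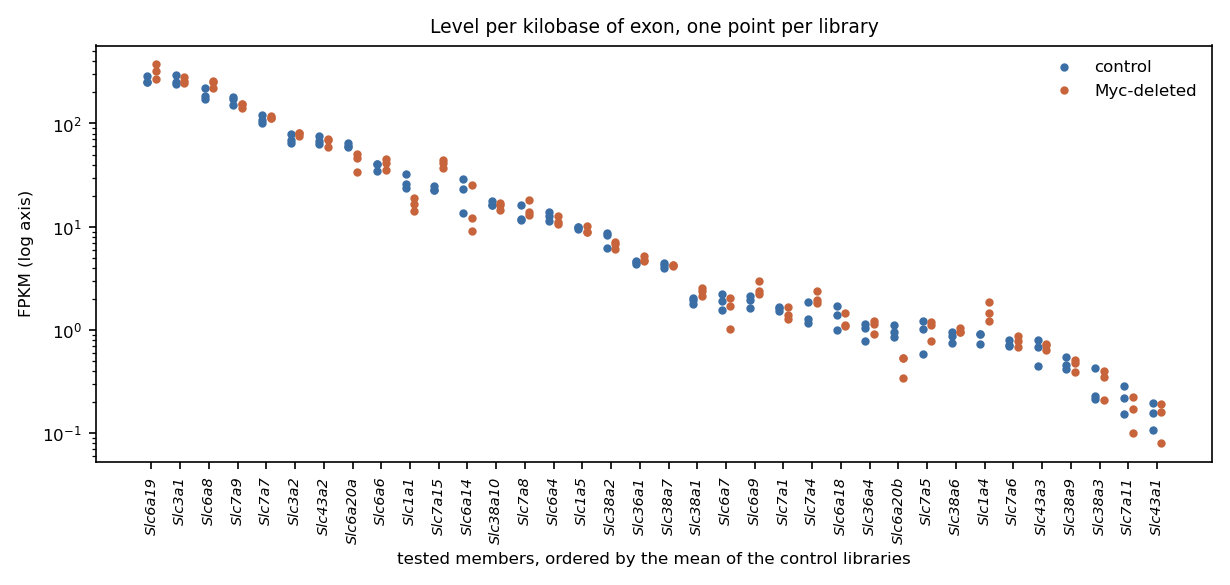
Level in FPKM (y axis, log scale) of the 36 tested transporter genes, ordered by their mean in the controls, with 1 point for each of the 3 control (blue) and 3 Myc-deleted (orange) libraries. Levels run from 263 FPKM for Slc6a19 to 0.153 FPKM for Slc43a1. The points of 8 genes separate by group (22.2%, against 27.8% of all tested genes). They are the called Slc1a1, Slc6a20a, Slc6a20b and Slc7a15, and Slc1a4, Slc6a9, Slc36a1 and Slc38a1, which were not called.

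Among the apical carriers, Slc1a1 takes up glutamate and aspartate with sodium. It lies on chromosome 19 (28835049 to 28913960, GRCm38). Its level was 195, 217 and 266 CPM in the controls and 156, 138 and 117 CPM in the Myc-deleted libraries. Every Myc-deleted library was below every control. The log2 fold change was -0.72 ± 0.13 SE (edgeR adjusted p = 0.00972), and the gene passed in all 13 alternative analyses, with an adjusted p of at most 0.0365.

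Slc6a20a, which carries proline and related imino acids, lies on chromosome 9 (123634770 to 123678885). It stood at 249, 266 and 242 CPM in the controls and at 206, 190 and 140 CPM in the Myc-deleted libraries. The groups did not overlap, and Myc-deleted library 3 was the lowest. The log2 fold change was -0.50 ± 0.13 SE (edgeR adjusted p = 0.0424). This call was lost in 4 of the 6 runs that left out 1 library. Dropping control library 1, 2 or 3 gave 0.0996, 0.151 and 0.0845, and dropping Myc-deleted library 2 gave 0.0770.

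Slc6a20b lies 2204 bases away, in tandem with Slc6a20a (chromosome 9, 123590800 to 123632565). It stood at 8.15, 7.26 and 9.60 CPM in the controls and at 4.58, 4.55 and 2.95 CPM in the Myc-deleted libraries, again without overlap. The log2 fold change was -1.04 ± 0.21 SE (edgeR adjusted p = 0.0164, and 0.0618 without control library 3). Per length, Slc6a20b amounted to 1.57%, 1.30% and 1.90% of Slc6a20a in the controls and to 1.06%, 1.15% and 1.01% in the Myc-deleted libraries. The value for Slc6a20b is uncertain, because reads of both genes can be exchanged in the counting. Of the windows of 50 bases in Slc6a20b transcripts, 7.24% also occur in Slc6a20a, and the deposited counts of both are not whole. On the opposite strand Slc6a20b overlaps Sacm1l, a gene at 84.9 CPM over all libraries with a log2 fold change of -0.31 ± 0.10 SE (adjusted p = 0.0861), and the sources used here do not state whether counting used the strand.

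**Figure D3:**
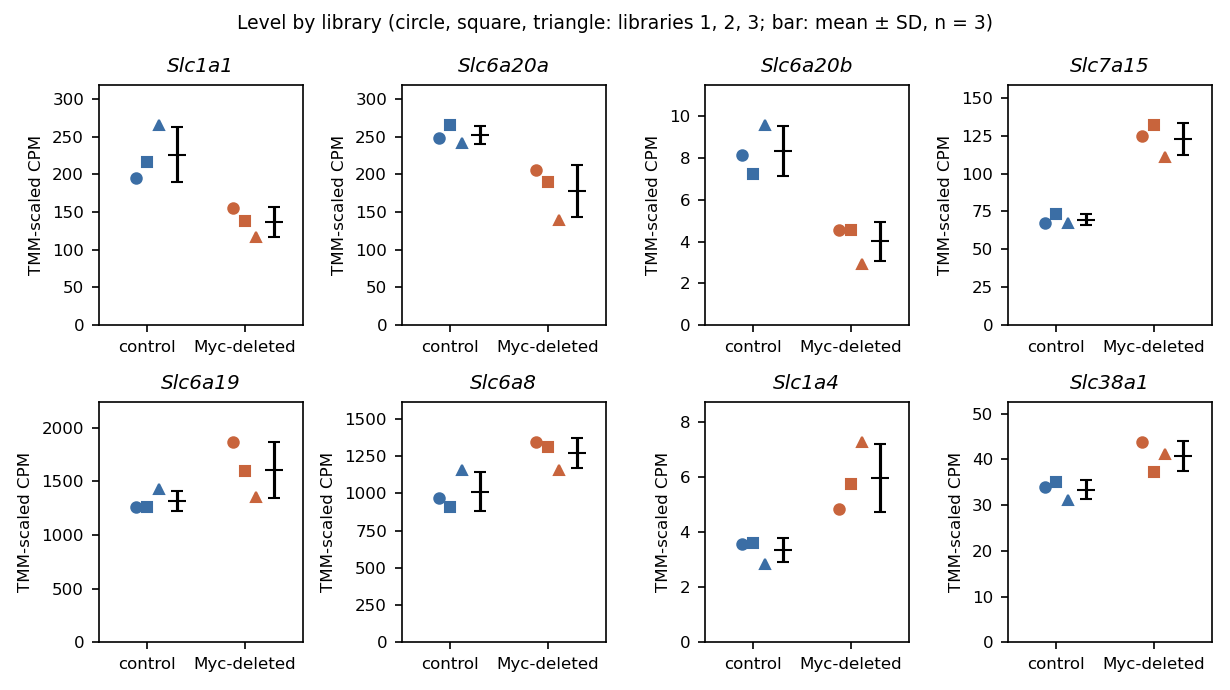
Normalised level in CPM (y axis, from 0) of 8 transporter genes in each control and Myc-deleted library (circle, square and triangle for libraries 1, 2 and 3), with the mean and SD of each group (n = 3). The libraries separate by group for Slc1a1, Slc6a20a, Slc6a20b, Slc7a15, Slc1a4 and Slc38a1 and overlap for Slc6a19 and Slc6a8.

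The other apical carriers did not pass. Slc6a19 stood at 1263, 1262 and 1428 CPM in the controls and at 1867, 1600 and 1351 CPM in the Myc-deleted libraries. Myc-deleted libraries 1 and 2 were above every control and library 3 was not (log2 fold change 0.29 ± 0.12 SE, edgeR adjusted p = 0.203). Slc6a14, a carrier of neutral and cationic amino acids, varied most within groups, at 46.7, 98.6 and 80.6 CPM in the controls and 42.2, 31.0 and 86.4 CPM in the Myc-deleted libraries (-0.50 ± 0.35, adjusted p = 0.450). The fold change of Slc6a14 moved from -1.05 without Myc-deleted library 3 to -0.24 at the other end of the runs that left out 1 library. The taurine carrier Slc6a6 stood at 294, 341 and 344 CPM in the controls and 385, 353 and 303 CPM in the Myc-deleted libraries (0.09 ± 0.10, adjusted p = 0.675). The glutamine exchanger Slc1a5 stood at 41.8, 41.5 and 39.9 CPM in the controls and 37.2, 37.3 and 42.7 CPM in the Myc-deleted libraries (-0.07 ± 0.09, adjusted p = 0.675). Both overlapped between the groups. The proton-coupled carrier Slc36a1 (0.11 ± 0.09) was slightly higher in every Myc-deleted library (26.5, 26.6 and 29.3 CPM) than in any control (24.6, 25.7 and 26.1 CPM), with an edgeR adjusted p of 0.518. The proline and glycine carrier Slc36a2, with 3 to 14 counts a library, stayed below the filter. Groups without overlap were found for 8 of the 36 tested transporters (22.2%), against 27.8% of all tested genes.

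The apical heterodimer of Slc3a1 and Slc7a9, whose loss causes cystinuria, imports cystine and cationic amino acids. Slc3a1 stood at 544, 568 and 666 CPM in the controls and 646, 589 and 560 CPM in the Myc-deleted libraries (0.01 ± 0.10, edgeR adjusted p = 0.955). The groups overlapped fully, and the sign turned with upper-quartile scaling and without control library 1, control library 2 or Myc-deleted library 1. Slc7a9 stood at 408, 466 and 485 CPM in the controls and 416, 409 and 375 CPM in the Myc-deleted libraries (-0.18 ± 0.09, adjusted p = 0.269). The per-length ratio of Slc7a9 to Slc3a1 was 0.636, 0.696 and 0.617 in the controls and 0.546, 0.589 and 0.568 in the Myc-deleted libraries. The ratio was lower in each Myc-deleted library than in any control, at a two-sided exact permutation p of 0.1, the smallest that 3 against 3 can give, and 0.3 after adjustment over 6 light-to-heavy-chain ratios.

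The make-up of the apical messages was described by each gene's share of the summed apical FPKM. Slc6a19 made up 31.8%, 29.5% and 30.6% in the controls and 39.0%, 37.1% and 34.5% in the Myc-deleted libraries. Slc3a1 held nearly the same share in each group, at 30.3% ± 1.08 and 30.5% ± 0.921 (SD, n = 3). The shares of Slc7a9 (19.7% ± 0.636 and 17.3% ± 0.918), Slc6a20a (7.23% ± 0.749 and 5.01% ± 0.563) and Slc1a1 (3.17% ± 0.253 and 1.91% ± 0.0911) were each lower in all Myc-deleted libraries than in all controls. Shares add to a fixed sum, so they move against each other, and these are given without a test. The summed apical level itself overlapped between groups, at 794 to 933 FPKM in the controls and 783 to 956 FPKM in the Myc-deleted libraries.

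**Figure D4:**
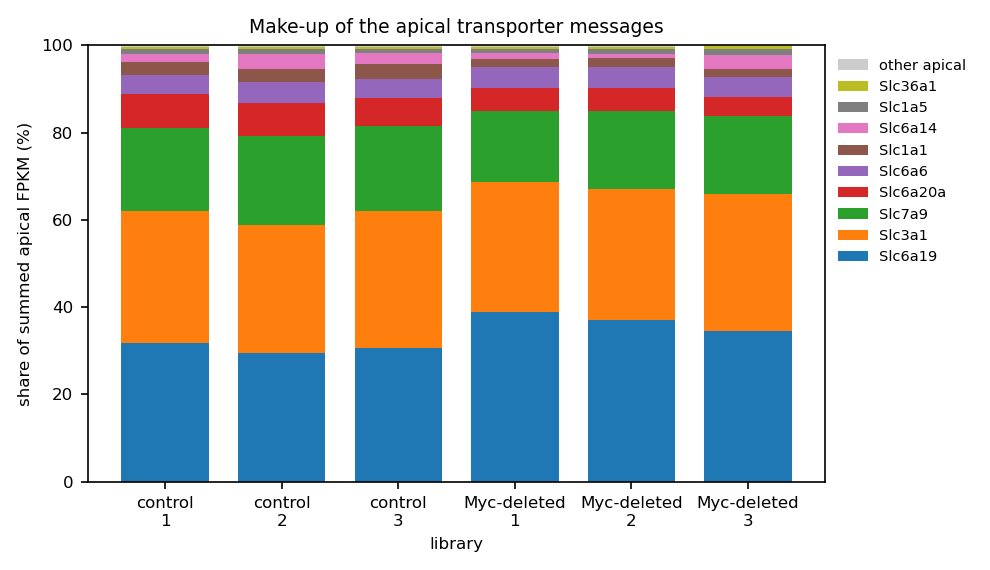
Share of the summed apical FPKM (y axis, percent) held by each apical transporter gene, with 1 stacked bar for each of the 6 libraries. The blue part, Slc6a19, spans 29.5% to 31.8% in the controls and 34.5% to 39.0% in the Myc-deleted libraries, and the red (Slc6a20a) and brown (Slc1a1) parts are narrower in the Myc-deleted libraries.

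Among the basolateral carriers and those of the plasma membrane in general, 13 of 16 were tested and none was called, with log2 fold changes from -0.42 to 0.40 and a median of 0.08. Slc3a2, the heavy chain shared by most light chains, stood at 228, 247 and 281 CPM in the controls and 288, 287 and 268 CPM in the Myc-deleted libraries (0.16 ± 0.09 SE, edgeR adjusted p = 0.341). Slc7a7, whose loss causes lysinuric protein intolerance, stood at 334, 358 and 402 CPM in the controls and 377, 390 and 374 CPM in the Myc-deleted libraries (0.06 ± 0.08, adjusted p = 0.727). Both genes overlapped between the groups. Per length, the ratio of Slc7a7 to Slc3a2 was 1.56, 1.54 and 1.52 in the controls and 1.39, 1.45 and 1.48 in the Myc-deleted libraries, a small separation with an exact permutation p of 0.1 (0.3 adjusted). On the opposite strand Slc7a7 overlaps Oxa1l, at a mean of 35.85 CPM (-0.37 ± 0.10 SE, edgeR adjusted p = 0.0585). Whether Oxa1l bears on this ratio was not tested.

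Among the light chains compared with Slc3a2 here, Slc7a7 was by far the most abundant. The relative Slc7a15, at 23.2 FPKM in the controls and described below, was not included in these ratios. The ratio to Slc3a2 in the controls was 0.185 for Slc7a8, a basolateral exchanger of neutral amino acids, 0.0130 for Slc7a5, the leucine exchanger of growing cells, 0.0105 for Slc7a6 and 0.00315 for Slc7a11, the cystine and glutamate exchanger. None of these 4 ratios separated the groups (exact permutation p = 0.3 to 1.0, n = 3 each). Slc7a8 stood at 57.8, 60.1 and 81.7 CPM in the controls and 69.4, 91.8 and 65.1 CPM in the Myc-deleted libraries (0.18 ± 0.16, edgeR adjusted p = 0.555). Slc7a5 stood at 2.19, 3.8 and 4.50 CPM in the controls and 2.93, 4.46 and 4.15 CPM in the Myc-deleted libraries (adjusted p = 0.837). The groups overlapped, as they did for the following light chains. Slc7a6 stood at 3.68, 3.20 and 3.27 CPM in the controls and 3.11, 3.62 and 3.97 CPM in the Myc-deleted libraries (adjusted p = 0.876). Slc7a11 stood at 3.08, 3.98 and 2.15 CPM in the controls and 2.38, 1.39 and 3.14 CPM in the Myc-deleted libraries (adjusted p = 0.533). Slc7a5 had only 22 to 48 counts per library, Slc7a6 32 to 43 and Slc7a11 15 to 46, so that their fold changes (0.14 ± 0.30, 0.08 ± 0.22 and -0.42 ± 0.35) are imprecise. Slc7a5 is further uncertain because Gm20388, at a mean of 16.8 CPM, overlaps it on the opposite strand. The sign of Slc7a5 turned without control library 1 and that of Slc7a6 without Myc-deleted library 3.

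Slc43a2, which releases branched-chain and aromatic amino acids, stood at 641, 674 and 768 CPM in the controls and 713, 689 and 595 CPM in the Myc-deleted libraries (-0.06 ± 0.10, edgeR adjusted p = 0.780), with a sign that turned without control library 3 or Myc-deleted library 3. Slc38a2, a sodium-coupled neutral amino acid carrier that starved cells induce, stood at 55.4, 77.8 and 74.2 CPM in the controls and 62.9, 53.3 and 59.8 CPM in the Myc-deleted libraries (-0.24 ± 0.13, adjusted p = 0.314). Its relative Slc38a1 stood at 33.9, 35.1 and 31.2 CPM in the controls and 43.8, 37.2 and 41.2 CPM in the Myc-deleted libraries. The Slc38a1 groups did not overlap, but the gene did not pass (0.29 ± 0.09, adjusted p = 0.0959), nor under another test, scaling, filter or omission, though its value lies below the looser limit of 0.1. The glycine carrier Slc6a9 was also higher in each Myc-deleted library (11.6 to 15.3 CPM) than in any control (8.35 to 11.1 CPM) and did not pass (0.40 ± 0.16, adjusted p = 0.167).

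Lysosomal and other intracellular carriers included 4 tested genes of 5, with none called and log2 fold changes from -0.09 to 0.14. They include Slc38a9, the lysosomal arginine sensor of the growth kinase mTORC1, and Slc38a7, which releases glutamine from lysosomes. Slc38a10, the most abundant of the group, stood at 105, 105 and 115 CPM in the controls and 104, 109 and 93.3 CPM in the Myc-deleted libraries (-0.09 ± 0.08, edgeR adjusted p = 0.60).

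The neurotransmitter and brain carriers were mostly at or near 0. Of 15, 5 had no read, 8 had 0 to 10 counts in each library, and only the serotonin carrier Slc6a4, which enterocytes also express, and the brain proline carrier Slc6a7 were tested. Slc6a4 stood at 52.0, 58.2 and 62.4 CPM in the controls and 57.9, 47.7 and 50.4 CPM in the Myc-deleted libraries (-0.15 ± 0.10, edgeR adjusted p = 0.448). The 5 enteric neuron markers summed to at most 1.37 CPM and the 4 glial markers to at most 0.461 CPM in any library, with the glial markers Sox10 and Gfap at 0 throughout. Among the remaining members, the renal light chain Slc7a13, Slc38a4 and Slc38a5 had no read, and a gene with no read can still have up to 0.259 to 0.307 CPM (3 counts, by library, counting error only).

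The gene that rose, Slc7a15, is a light-chain relative described as preferring aromatic amino acids, and it belongs to neither the apical nor the basolateral list. It lies on chromosome 12 (8528483 to 8599066). It stood at 67.6, 73.6 and 67.2 CPM in the controls and at 125, 132 and 111 CPM in the Myc-deleted libraries. The libraries of each group lay close together and far from the other group. The log2 fold change was 0.82 ± 0.09 SE (edgeR adjusted p = 0.000955), and the gene passed in all 13 alternative analyses, with an adjusted p of at most 0.00625. Per length it went from 23.2 ± 1.19 to 41.0 ± 3.58 FPKM, near the level of Slc6a20a in the same Myc-deleted libraries (43.7 ± 8.50 FPKM).

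The members of other or unassigned role are 14, of which 6 were tested. All 6 had positive fold changes, with a median of 0.42 on the log2 scale, and Slc7a15 alone was called. Of all 12720 tested genes, 6330 had positive fold changes and 4.22% were called higher. The group holds the members left over from the other roles, and its shared direction was not tested. Slc6a8 stood at 967, 909 and 1156 CPM in the controls and 1345, 1310 and 1155 CPM in the Myc-deleted libraries. Control library 3 met Myc-deleted library 3 at the same level, and Slc6a8 did not pass (0.33 ± 0.11, edgeR adjusted p = 0.105), though it did with DESeq2 (adjusted p = 0.0344) and without control library 3 (0.0474). Slc1a4, an exchanger of serine, alanine and cysteine, stood at 3.58, 3.63 and 2.86 CPM in the controls and 4.85, 5.76 and 7.29 CPM in the Myc-deleted libraries. Its groups did not overlap and it narrowly failed (0.82 ± 0.22, edgeR adjusted p = 0.0521). Slc1a4 passed with every gene kept in the fit (0.0292), and also when Myc-deleted library 1 was dropped (0.0396).

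By family, the call in Slc1 was Slc1a1 (1 of 3 tested), the calls in Slc6 were the Slc6a20 pair (2 of 10) and the call in Slc7 was Slc7a15 (1 of 9). None was called among 2 tested Slc3, 2 Slc36, 7 Slc38 and 3 Slc43 genes.

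Peptide uptake is the other route of dietary amino acids into enterocytes. Of 20 genes of peptide uptake, brush-border peptidases and transporter partners, 18 were tested, 1 rose and none fell, with a median log2 fold change of -0.05. The called share was 5.56%, where 4.22% of all tested genes were called higher. Slc15a1, the proton-coupled carrier of di- and tripeptides, stood at 509, 481 and 552 CPM in the controls and 759, 748 and 574 CPM in the Myc-deleted libraries (0.43 ± 0.11 SE, edgeR adjusted p = 0.0479). That call rests on thin margins, since it was lost with upper-quartile scaling (adjusted p = 0.0648), with the replicate number as a block (0.0746) and on dropping any single library other than Myc-deleted library 3 (0.0734 to 0.198). Anpep, the aminopeptidase that cuts peptides at the brush border, stood at 15150 ± 1551 and 14010 ± 799.8 CPM (SD, n = 3; -0.11 ± 0.13, edgeR adjusted p = 0.660).

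Shortage of amino acids raises several of these carriers through the transcription factor Atf4. Of 20 genes of this response, all were tested, 3 rose and none fell, with a median log2 fold change of 0.04. The called share was 15%, where 4.22% of all tested genes were called higher. Fold changes were positive for 11 of the 20 genes and negative for 9. Trib3, a pseudokinase that Atf4 induces, went from 12.4, 9.60 and 13.1 CPM in the controls to 21.9, 25.2 and 20.7 CPM in the Myc-deleted libraries (0.95 ± 0.14, edgeR adjusted p = 0.00334). Ddit3, the stress factor CHOP, rose (0.66 ± 0.17, adjusted p = 0.0450), as did Vldlr, a lipoprotein receptor (1.13 ± 0.26, adjusted p = 0.0281). Both calls were lost without any one of the 3 control libraries or without Myc-deleted library 3 (adjusted p = 0.0568 to 0.154 for Ddit3 and 0.0777 to 0.10 for Vldlr). Ddit3 was also lost without Myc-deleted library 2 (0.103), with upper-quartile scaling (0.0562) and with limma voom (0.0575). Vldlr was also lost without Myc-deleted library 1 (0.0798), with the block for replicate number (0.0560) and with DESeq2 (0.0587). Each passed in 6 of the 13 alternative analyses. Atf4 itself stood at 208 ± 21.3 and 207 ± 17.0 CPM (adjusted p = 0.985). The 9 genes with negative fold changes, none of them called, included Pycr1 (-0.65 ± 0.32, edgeR adjusted p = 0.270). Shmt2 (-0.46 ± 0.18, adjusted p = 0.172) and Asns (-0.26 ± 0.21, adjusted p = 0.533) were also among these 9. The amino acid carriers Slc7a11, Slc7a5, Slc3a2 and Slc38a2 did not pass, as given above. Nor did Slc1a4, though its groups did not overlap (0.82 ± 0.22, edgeR adjusted p = 0.0521).

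Markers of several cell types moved along with these results. Of 8 enterocyte markers, 3 rose (Fabp2, Apoa1 and Lct) and none fell, where 4.22% of all tested genes were called higher. The 8 markers summed to 20950 to 25720 CPM in the controls and 30800 to 37200 CPM in the Myc-deleted libraries, while Slc1a1, Slc6a20a and Slc6a20b were lower. Fabp2 had means of 4759 and 8859 CPM and Apoa1 of 9503 and 13280 CPM. The other 5 were not called, from -0.01 ± 0.14 for Sis and 0.02 ± 0.10 for Vil1 to 0.74 ± 0.28 for Apoa4. Of 5 enteroendocrine markers, 3 rose (113 to 131 and 160 to 216 CPM in sum). The 5 crypt stem and cycling markers summed to 83.2 to 102 and 64.6 to 88.5 CPM, with none called. The 5 smooth muscle markers summed to 15.2 to 82.9 CPM in the controls, with control library 2 the highest, and to 15 to 18.8 CPM in the Myc-deleted libraries, with none called. Of the 5 hepatocyte markers, 3 were tested and 1 was called, the serum albumin gene Alb. It stood at 1.89, 3.20 and 2.76 CPM in the controls and 0.915, 0.0929 and 0.738 CPM in the Myc-deleted libraries (-2.15 ± 0.52 SE, edgeR adjusted p = 0.0326). That call rests on 19, 37 and 27 counts in the controls and 10, 1 and 8 in the Myc-deleted libraries. The other 2 tested, Ttr and Apoh, had positive fold changes (0.30 ± 0.29 and 0.25 ± 0.49, edgeR adjusted p = 0.60 and 0.81). No gene was called among the Paneth, goblet, tuft, endothelial, fibroblast, T cell, B cell or macrophage markers. The part of these cell types in the transporter results was not tested. The 4 pancreatic acinar markers were at 0 in every library.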

How the data were processed

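Stranded mRNA libraries of 6 mouse intestine samples were analysed. The authors deposited expected counts per gene, unscaled between libraries. The submitters' processing notes name cutadapt, STAR, Picard, RSEM and the build mm10. Their versions, the annotation and the strand setting were not given in the sources used here. GENCODE M21 (GRCm38) symbols were matched to 99.1% of genes by Ensembl identifier.

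Rounded expected counts entered edgeR 4.0.16 under R 4.3.3, with filterByExpr (minimum count 10, minimum total 15), TMM scaling and the quasi-likelihood F-test. P-values were adjusted by Benjamini-Hochberg across the whole set of 12720 tested genes, with calls below 0.05. Dividing the size of the log2 fold change by the root of F gave its SE. FPKM divides TMM-scaled CPM by the union of exons. The procedure was checked on simulated counts.

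The rule for members uses names only, but it, the role groups and the lists were chosen with earlier results of these data known. Values per library are given for members called, with a mean CPM of at least 20, with separated groups and adjusted p below 0.1, or in a heterodimer with Slc3a1 or Slc3a2. Slc6a9, Anpep, Atf4, Asns, Shmt2, Pycr1 and the cell type markers named singly fall outside this rule and were picked after seeing their values. Slc15a1, Trib3, Ddit3 and Vldlr are not members and are named because they were called. Sacm1l, Gm20388 and Oxa1l are named because they overlap members.

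Alternatives covered the test (DESeq2 1.42.0, limma 3.58.1 voom), scaling (RLE, upper quartile), 2 other filters, a block for the replicate number, omission of single libraries, an adjusted p of 0.1 and another gene length.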

Additional observations from a re-analysis of the deposited data

How the results depend on the processing

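Over all genes, 537 were higher and 474 lower, which became 824 and 748 at an adjusted p of 0.1 and ranged from 229 to 503 higher and 233 to 447 lower when 1 library was left out. The counts without control library 2 were 229 and 233, without control library 1 they were 343 and 303, without control library 3 they were 376 and 313, and without Myc-deleted library 2 they were 337 and 302. The transporters called were 1 higher and 3 lower. The number higher was 2 without a filter on low counts (with Slc1a4), 2 with DESeq2 (with Slc6a8) and 3 at an adjusted p of 0.1, and 1 to 2 when 1 library was left out. The number lower was 1 to 3 when 1 library was left out, with 1 left without control library 3, and the cause was not tested. Slc1a1 and Slc7a15 passed in all 13 alternatives, Slc6a20b in 12 and Slc6a20a in 9.

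Peptide uptake genes fell to 0 called with upper-quartile scaling, with the block and in 5 of the 6 omissions. In the Atf4 response, 1 to 2 genes were higher and 0 to 1 lower when 1 library was left out.

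Signs turned for 5 named genes, none of which passed in any analysis. Slc3a1 was -0.027 with upper-quartile scaling and -0.046 to 0.10 when 1 library was left out. Under the same omission Slc7a5 ranged from -0.11 to 0.35, Slc7a6 from -0.0098 to 0.17, Slc43a2 from -0.11 to 0.017 and Atf4 from -0.085 to 0.045.

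Libraries with the same number deviated together only weakly (correlation 0.026, 0.052 and 0.019), although each correlated best with its own number, so the numbers were not taken as pairs. With the replicate number as a block, 552 genes were higher and 428 lower, and the transporters stayed at 1 higher and 3 lower (Slc6a20a at an adjusted p of 0.0230). Depth limits Slc7a5, Slc7a6 and Slc7a11, whose standard errors were 0.22 to 0.35.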
